A study of Homo sapiens with 9 samples.

Results

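The genes described here encode chaperones of the endoplasmic reticulum (ER), the compartment in which secreted and membrane proteins fold, together with the sensors and degradation machinery of the unfolded protein response. A list of 41 genes was drawn up, and a gene counted as measured where a transcript cluster of the array carried its symbol and no other. By that rule 36 of the 41 genes were measured, out of 14232 genes with a cluster of their own. HSP90B1 and PDIA3 lay only in clusters annotated with several genes, and P4HB, TXNDC5 and SEC61B matched no cluster in the annotation used, so these 5 genes have no value here. TXNDC11 had 2 clusters, and the one with the higher mean signal was used.

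Expression was measured in GM12878, an established human B-lymphoblastoid line transformed with Epstein-Barr virus, on 9 Affymetrix Human Exon 1.0 ST arrays. There were 3 untreated cultures harvested at 0 h, 3 cultures after 8 h with 10 µM D,L-sulforaphane and 3 after 24 h with the same dose. Sulforaphane is an electrophilic isothiocyanate best known for activating the antioxidant factor NRF2. The treatment protocol mentions a DMSO vehicle. Vehicle-treated cells were not analysed here, nor were untreated cells kept for 8 h or 24 h. Time in culture and treatment therefore cannot be told apart in any comparison. All groups came from this 1 cell line, and the cultures were prepared in triplicate for each time, so the tests measure the spread between cultures of 1 line.

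In the unfolded protein response, 3 sensors in the ER membrane respond to an excess of unfolded proteins. ERN1 (IRE1) splices the mRNA of the transcription factor XBP1, ATF6 is cut to release a transcription factor, and EIF2AK3 (PERK) slows translation and raises ATF4. XBP1 and ATF6 then raise the lumenal chaperones, led by HSPA5 (BiP), and the machinery that returns misfolded proteins to the cytosol for degradation. B cells draw on this pathway heavily when they become antibody-secreting plasma cells.

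The promoters of several of these genes hold short elements that are bound under ER stress, and they are shown here because the genes that carry them are followed through the results. The ER stress element is CCAAT, then 9 bases, then CCACG, and the second ER stress element is ATTGG, then 1 base, then CCACG. Both were searched on both strands of RefSeq promoters (build GRCh38.p14), which run from 250 bases before to 50 bases after each annotated start. The sequences read 5′ to 3′ along the strand of the gene, with the element in capitals and flanks of up to 12 bases in lower case. In CALR, CRELD2, SDF2L1 and HYOU1 the element lies on the opposite strand and appears as its reverse complement.
HSPA5, chr9:125241379-125241421 (minus strand), element at -66 to -48 from the start: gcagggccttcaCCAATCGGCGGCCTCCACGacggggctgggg
PDIA6, chr2:10812841-10812883 (minus strand), element at -86 to -68: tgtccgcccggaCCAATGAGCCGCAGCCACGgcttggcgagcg
XBP1, chr22:28800591-28800633 (minus strand), element at -52 to -34: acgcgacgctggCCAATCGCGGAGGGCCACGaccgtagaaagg
CALR, chr19:12938372-12938414 (plus strand), element at -225 to -207: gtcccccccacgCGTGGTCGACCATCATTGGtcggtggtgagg
CRELD2, chr22:49918542-49918584 (plus strand), element at -80 to -62: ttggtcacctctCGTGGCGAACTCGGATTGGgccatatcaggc
CANX, chr5:179698766-179698808 (plus strand), element at -151 to -133 from 1 of its annotated starts: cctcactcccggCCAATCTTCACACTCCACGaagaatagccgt
SDF2L1, chr22:21642102-21642136 (plus strand), second element at -188 to -178: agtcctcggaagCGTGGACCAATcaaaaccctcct
HERPUD1, chr16:56932013-56932047 (plus strand), second element at -117 to -107: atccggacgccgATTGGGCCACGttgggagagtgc
HYOU1, chr11:119057262-119057296 (minus strand), second element at -79 to -69: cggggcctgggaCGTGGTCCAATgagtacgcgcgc
HYOU1, chr11:119057368-119057402 (minus strand), second element at -185 to -175: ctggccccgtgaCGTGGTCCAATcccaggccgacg

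The values were the authors' log2 RMA signals, normalised between arrays by sketch-quantile, and the differences below are on that log2 scale. All 22011 clusters were fitted together with limma, and a gene was called where its Benjamini-Hochberg adjusted p over all clusters was below 0.05. Of 13 B cell markers measured, 12 lay above the mean of all values, including CD79A, MS4A1 and PAX5, against 2 of 11 T and NK cell, 1 of 8 myeloid, 2 of 8 fibroblast and 2 of 7 epithelial markers. The mean log2 signal over the B cell markers was 11.01 to 11.18 at 0 h, 11.05 to 11.14 at 8 h and 11.09 to 11.16 at 24 h. BLK was the 1 B cell marker that passed, and it rose by 0.44 at 24 h against 0 h (adjusted p = 0.038). Of 10 plasma cell markers 8 lay above the mean of all values. None was called in any comparison, where 0.2% to 1.62% of all clusters were. The mean signal of the 10 was 9.41 to 9.70 at 0 h, 9.71 to 9.76 at 8 h and 9.71 to 9.84 at 24 h. An unadjusted p below 0.05 was reached by 2 at 8 h against 0 h, where 15.1% of all clusters did so. At 24 h it was reached by 1 against 8 h and 4 against 0 h, where 10.4% and 20.4% of all clusters did so.

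Untreated replicate 2 stood apart from the other 2 untreated arrays for these genes. The median log2 signal of the 36 genes was 9.74 on that array, against 10.27 and 10.11 on untreated replicates 1 and 3. The array was not low for these genes alone. The upper quartile of all clusters was 9.28 on it, against 9.54 and 9.49, and the median of all clusters 7.99, against 8.08 and 8.06. The 36 genes are bright, with medians above those upper quartiles. Whether their deviation exceeds that of other bright clusters was not tested. On untreated replicate 2, 20 of the 36 genes had their lowest value of the 9 arrays, a count that was not made for all clusters. It lay below the mean of the other 2 untreated arrays for 28 of the 36 genes, where 55.3% of all clusters did so, and by over 0.5 for 13 genes, where 14.8% of all clusters did so. The deviation ranged from -0.85 for DNAJC10 to 0.23 for SDF2L1, with a median of -0.30 over the 36 genes and -0.03 over all clusters. For HSPA5 it was -0.04 and for HYOU1 0.01. The median SD of the 36 genes was 0.18 at 0 h, 0.08 at 8 h and 0.09 at 24 h. Differences of the 36 genes against 0 h that moved by over 1.5 times when it was left out are given both ways where they are printed.

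HSPA5, the abundant HSP70 chaperone of the ER lumen that also holds the sensors inactive, was the 1 gene of the 36 that fell at 8 h. Its log2 signal was 12.58, 12.45 and 12.41 at 0 h, 11.90, 11.76 and 11.92 at 8 h, and 12.57, 12.44 and 12.42 at 24 h. All 3 arrays at 8 h lay below all 6 others, and the arrays at 24 h covered almost the same range as those at 0 h. HSPA5 fell by 0.62 ± 0.08 (SE) at 8 h against 0 h, a 1.54-fold decrease (adjusted p = 0.018). It rose by 0.62 ± 0.08 at 24 h against 8 h (adjusted p = 0.025). Between 24 h and 0 h it differed by -0.0011 ± 0.08 (adjusted p = 0.99), and by -0.0143 without untreated replicate 2.

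The fall of HSPA5 at 8 h was -0.63 without untreated replicate 2 (adjusted p = 0.024), and it ranged from -0.66 to -0.57 when each array was left out in turn. Leaving out untreated replicate 3 ended the call (-0.66, adjusted p = 0.092). So did leaving out 8 h replicate 1 (-0.64, adjusted p = 0.089), 8 h replicate 3 (-0.65, adjusted p = 0.076) and 24 h replicate 2 (-0.62, adjusted p = 0.05 after rounding). In bulk RNA, fewer cells that express a gene and less of its RNA per cell cannot be told apart.

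At 8 h against 0 h, 1 of the 36 genes fell and 0 rose, where 0.327% of all clusters fell and 0.268% rose. An unadjusted p below 0.05 was reached by 9 of the 36, where 15.1% of all clusters did so. HSPA5, MANF and PDIA6 fell and 0 genes rose without untreated replicate 2, where 0.977% of all clusters fell and 0.345% rose. The median difference of the 36 genes was 0.01, against -0.01 over all clusters. It was -0.15 without untreated replicate 2, when the median over all clusters was -0.02. Differences below 0 numbered 17 of the 36 with that array, where 53.0% of all clusters were below 0, and 25 of the 36 without it, where 55.3% were. With all arrays, the median of the 36 genes was -0.0273 after quantile normalization, where that over all clusters was -0.0462. It was -0.0163 after centring on array medians, where that over all clusters was -0.035. With untreated replicate 2 kept, the 36 genes thus lay slightly above all clusters in both settings. As deposited and with all arrays, the 5503 brightest clusters had a median of 0.05, and 2155 were below 0. The median of the 36 genes lay below that. Whether they differ at 8 h from clusters of similar signal was not tested.

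HSPA5, HYOU1 and MANF rose at 24 h against 8 h and 0 genes fell, where 0.1% of all clusters rose and 0.227% fell. The median difference was 0.17 for the 36 genes and 0.02 for all clusters. Of the 36 differences 4 lay below 0, where 42.0% of all clusters did so. The 36 genes are bright, and for the 5503 brightest of all clusters the median was 0.05, with 2135 below 0. An unadjusted p below 0.05 was reached by 9 of the 36, where 10.4% of all clusters did so. The untreated arrays enter these values only through the shared estimate of the spread. When untreated replicate 2 was left out, DNAJB9 passed as well, giving 4 genes, where 0.332% of all clusters rose.

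DNAJB9 was the 1 gene that rose at 24 h against 0 h and 0 genes fell, where 0.831% of all clusters rose and 0.791% fell. The median difference was 0.19 for the 36 genes, against 0.02 for all clusters, and 8 of the 36 differences were below 0, where 46.9% of all clusters were. An unadjusted p below 0.05 was reached by 8 of the 36, or 22.2%, against 20.4% of all clusters. When untreated replicate 2 was left out the median was 0.08. Then 11 of the 36 differences were below 0, where 47.5% of all clusters were. Without that array 0 of the 36 genes passed, where 0.445% of all clusters rose and 0.981% fell. With all arrays, the 5503 brightest clusters had a median difference of 0.09 at 24 h against 0 h, and 1715 were below 0. An unadjusted p below 0.05 was reached by 24.3% of these bright clusters.

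**Figure D1:**
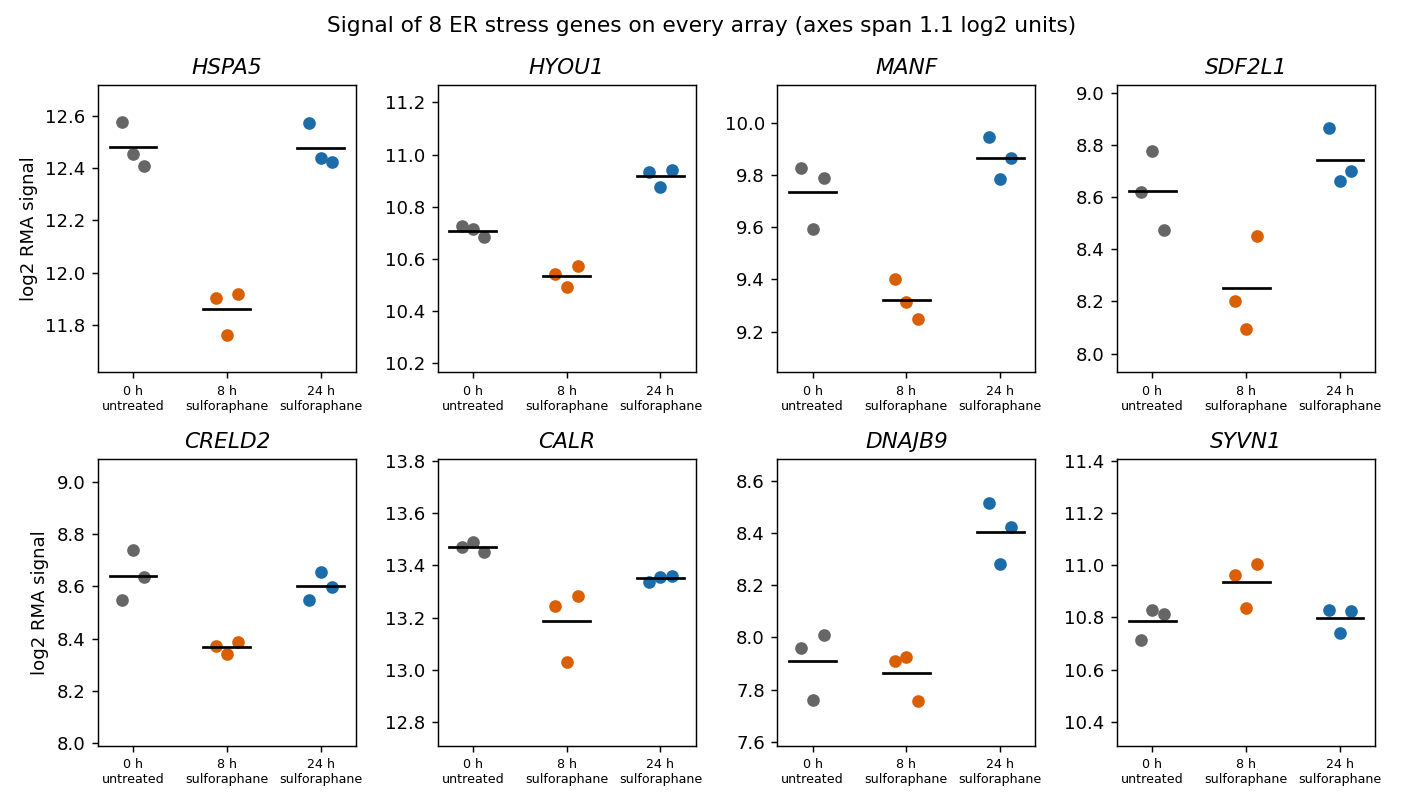
Log2 RMA signal of 8 genes on every array at 0 h (untreated), 8 h and 24 h of sulforaphane; points are arrays and bars are group means, and each axis spans 1.1 log2 units. For HSPA5, HYOU1, MANF, SDF2L1, CRELD2 and CALR the 3 points at 8 h lie below the other 6, for SYVN1 they lie above them, and for DNAJB9 the points at 24 h lie above the rest.

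Among the chaperones of the ER lumen, 7 of 8 were measured. At 8 h against 0 h 1 fell and 0 rose, where 0.327% of all clusters fell and 0.268% rose, and their median difference was -0.17. All 7 differences were above 0 at 24 h against 8 h with a median of 0.49, and 2 genes rose, where 0.1% of all clusters rose. Against 0 h, 1 gene rose at 24 h, where 0.831% of all clusters rose. The median there was 0.31, and 0.20 without untreated replicate 2. HYOU1 is a large HSP70 relative of the ER that acts as an exchange factor for HSPA5. Its log2 signal was 10.72, 10.71 and 10.68 at 0 h, 10.54, 10.49 and 10.57 at 8 h, and 10.93, 10.87 and 10.94 at 24 h. The 3 groups did not overlap, with 8 h lowest and 24 h highest. HYOU1 rose by 0.38 ± 0.05 at 24 h against 8 h, a 1.30-fold increase (adjusted p = 0.038). Its differences against 0 h were -0.17 ± 0.05 at 8 h (adjusted p = 0.18) and 0.21 ± 0.05 at 24 h (adjusted p = 0.10).

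DNAJB9 (ERdj4) is a J-domain cochaperone of HSPA5 and a target of XBP1. Its log2 signal was 7.96, 7.76 and 8.01 at 0 h, 7.91, 7.92 and 7.76 at 8 h, and 8.51, 8.28 and 8.42 at 24 h. The arrays at 0 h and 8 h overlapped, and those at 24 h lay above all others. It rose by 0.50 ± 0.09 at 24 h against 0 h, a 1.41-fold increase (adjusted p = 0.047), and differed by -0.05 ± 0.09 at 8 h against 0 h (adjusted p = 0.82), and by -0.12 there without untreated replicate 2. The call at 24 h was lost without any 1 of the 9 arrays, with differences from 0.42 to 0.56 and adjusted p from 0.051 to 0.18.

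DNAJB11 (ERdj3), another J-domain partner of HSPA5, had log2 signals of 11.31, 10.74 and 11.22 at 0 h, 11.02, 10.65 and 10.98 at 8 h, and 11.47, 11.38 and 11.45 at 24 h. The arrays at 24 h lay above all others, and untreated replicate 2 lay within the range at 8 h. Its difference of 0.55 ± 0.16 at 24 h against 8 h did not pass (adjusted p = 0.26). SDF2L1, which works with the J-domain proteins in the lumen, had log2 signals of 8.62, 8.78 and 8.47 at 0 h, 8.20, 8.10 and 8.45 at 8 h, and 8.86, 8.66 and 8.70 at 24 h. Its 8 h arrays lay below all others, 8 h replicate 3 by a narrow margin. The differences were -0.37 ± 0.12 at 8 h against 0 h (adjusted p = 0.19) and 0.49 ± 0.12 at 24 h against 8 h (adjusted p = 0.18).

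DNAJC3 (p58IPK) and DNAJC10 (ERdj5, a J-domain disulfide reductase) did not pass in any comparison. At 8 h against 0 h they differed by 0.15 ± 0.17 and 0.09 ± 0.23, and without untreated replicate 2 by 0.01 and -0.20. DNAJC10 had 8.80 on untreated replicate 2, against 9.71 and 9.59 on untreated replicates 1 and 3, and 9.41 to 9.48 at 8 h.

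The secreted factors MANF and CRELD2 are small ER proteins that are induced by ER stress and partly released from cells. MANF binds HSPA5. Its log2 signal was 9.83, 9.59 and 9.79 at 0 h, 9.40, 9.31 and 9.25 at 8 h, and 9.94, 9.78 and 9.86 at 24 h. The 8 h arrays lay below all others, while 0 h and 24 h overlapped. MANF rose by 0.54 ± 0.08 at 24 h against 8 h, a 1.46-fold increase (adjusted p = 0.049). Its difference of -0.41 ± 0.08 at 8 h against 0 h did not pass (adjusted p = 0.07). That difference was -0.49 and passed when untreated replicate 2 was left out (adjusted p = 0.031).

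CRELD2 had log2 signals of 8.55, 8.74 and 8.64 at 0 h, 8.37, 8.34 and 8.39 at 8 h, and 8.55, 8.66 and 8.60 at 24 h. Its 8 h arrays lay close together below all others, and its untreated replicate 2 was the highest array rather than the lowest. The difference at 8 h against 0 h was -0.28 ± 0.07 (adjusted p = 0.11), and -0.23 without untreated replicate 2. The difference at 24 h against 0 h was -0.04 ± 0.07 (adjusted p = 0.71), and 0.0071 without that array.

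The rises at 24 h against 8 h kept their direction when each array was left out but often not their call. That of HSPA5 ranged from 0.57 to 0.65 and passed without untreated replicate 1 or 2 only, with adjusted p from 0.056 to 0.13 without each of the other 7 arrays. HYOU1 ranged from 0.36 to 0.40 and MANF from 0.50 to 0.58, and each passed without untreated replicate 2 only. Without each of the other 8 arrays the adjusted p was 0.053 to 0.20 for HYOU1 and 0.067 to 0.22 for MANF.

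The lectin chaperones CALR and CANX bind glycoproteins through a shared glycan and hold them for folding. CALR had log2 signals of 13.47, 13.49 and 13.45 at 0 h, 13.24, 13.03 and 13.28 at 8 h, and 13.34, 13.36 and 13.36 at 24 h. The 3 groups did not overlap, and 24 h lay between 8 h and 0 h. The differences were -0.28 ± 0.07 at 8 h against 0 h (adjusted p = 0.13) and -0.12 ± 0.07 at 24 h against 0 h (adjusted p = 0.36). CANX, the membrane-bound counterpart, had log2 signals of 12.80, 12.48 and 12.82 at 0 h, 12.84, 12.82 and 12.88 at 8 h, and 12.96, 12.84 and 12.86 at 24 h. All its treated arrays lay above the untreated ones, 2 of which were close to them, and its difference of 0.15 ± 0.09 at 8 h against 0 h (adjusted p = 0.47) was 0.04 without untreated replicate 2.

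Among the disulfide isomerases and oxidases, which form and rearrange disulfide bonds, 6 of 9 were measured and 0 passed in any comparison, with 0 at an unadjusted p below 0.05. Depending on the comparison, 0.2% to 1.62% of all clusters were called, and 10.4% to 20.4% reached an unadjusted p below 0.05. The median difference of the 6 genes was -0.10 at 8 h against 0 h, 0.25 at 24 h against 8 h and 0.15 at 24 h against 0 h. With untreated replicate 2 left out, the medians against 0 h were -0.28 at 8 h and -0.04 at 24 h, the second turning below 0. PDIA6, an isomerase that also binds the sensors ERN1 and EIF2AK3, had log2 signals of 11.35, 10.77 and 11.36 at 0 h, 11.00, 10.91 and 10.91 at 8 h, and 11.37, 11.19 and 11.28 at 24 h. Untreated replicate 2 lay below all other arrays and the 2 other untreated arrays lay above all 8 h arrays. The difference at 8 h against 0 h was -0.22 ± 0.15 (adjusted p = 0.50), and -0.41 without untreated replicate 2, when it passed (adjusted p = 0.044).

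PDIA4, a large isomerase found with HSPA5 in chaperone complexes, followed a similar array pattern, with 8.50 on untreated replicate 2 against 9.18 and 9.02 on untreated replicates 1 and 3. Its 8 h arrays gave 8.73, 9.00 and 8.59, and its 24 h arrays 9.10, 9.09 and 9.25. Its difference at 8 h against 0 h was -0.32 without that array and -0.12 ± 0.18 with it (adjusted p = 0.75). The oxidase ERO1B gave -0.33 and -0.08 ± 0.21 in the same way (adjusted p = 0.87). ERO1A, its relative, differed by -0.20 ± 0.11 at 8 h against 0 h (adjusted p = 0.43), with 10.93 on 8 h replicate 2, against 11.31 and 11.37 on the other 8 h arrays. PDIA5 and TXNDC11 differed by 0.01 ± 0.15 and -0.07 ± 0.06 at 8 h against 0 h, and by -0.17 and -0.09 without untreated replicate 2.

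**Figure D2:**
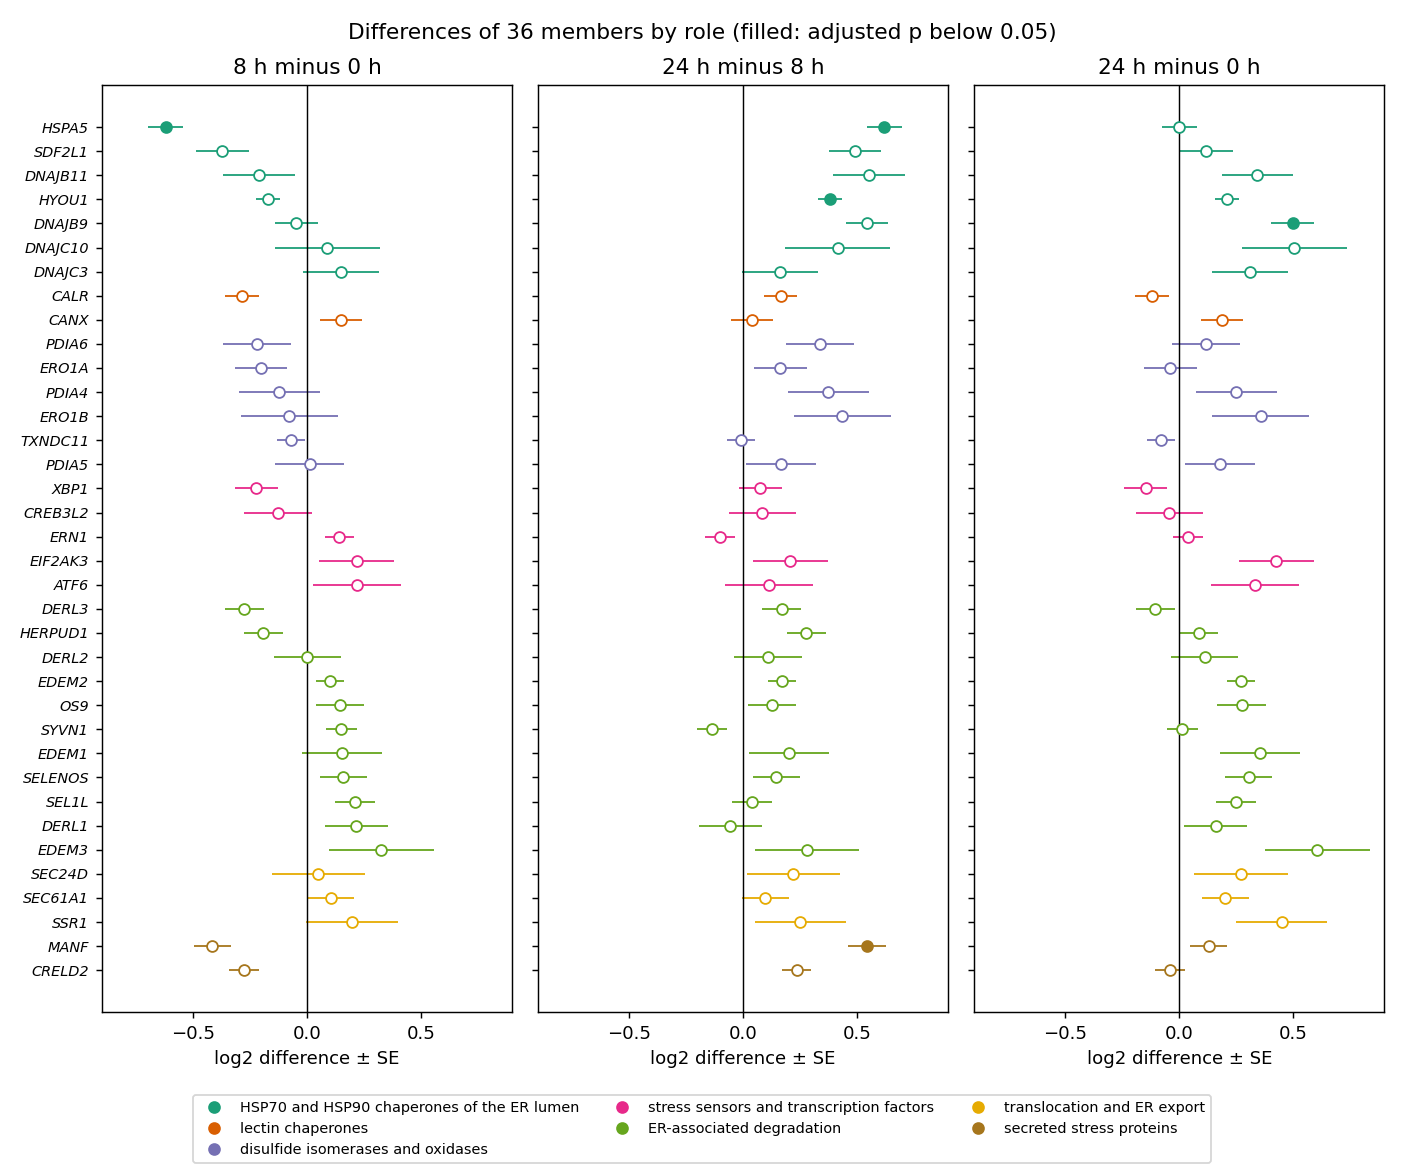
Log2 difference ± SE of the 36 genes for 8 h minus 0 h, 24 h minus 8 h and 24 h minus 0 h, with colours for the roles, in order the lumenal chaperones, lectins, disulfide enzymes, sensors, degradation, translocation and secreted factors; filled points passed an adjusted p of 0.05. HSPA5 is the filled point at 8 h minus 0 h, HSPA5, HYOU1 and MANF are filled at 24 h minus 8 h, and DNAJB9 is filled at 24 h minus 0 h.

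Of the sensors and transcription factors, all 5 were measured and 0 passed in any comparison, where 0.2% to 1.62% of all clusters were called. An unadjusted p below 0.05 was reached by 1 in each comparison with 0 h, where 15.1% of all clusters did so at 8 h and 20.4% at 24 h. At 24 h against 8 h it was reached by 0, where 10.4% of all clusters did so. XBP1, the factor made by ERN1-directed splicing, had log2 signals of 11.03, 10.93 and 10.93 at 0 h, 10.81, 10.55 and 10.86 at 8 h, and 10.70, 10.88 and 10.86 at 24 h. All its treated arrays lay below all untreated arrays. The differences against 0 h were -0.22 ± 0.09 at 8 h (adjusted p = 0.31) and -0.15 ± 0.09 at 24 h (adjusted p = 0.37). A gene-level signal does not separate the spliced from the unspliced form.

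The sensors ERN1, ATF6 and EIF2AK3 differed by 0.14 ± 0.07, 0.22 ± 0.19 and 0.22 ± 0.16 at 8 h against 0 h. Leaving out untreated replicate 2 gave 0.10, -0.01 and 0.02. For ATF6 that array gave 10.46, against 11.22 and 11.12 on the other untreated arrays and 11.07 to 11.24 at 8 h. EIF2AK3 differed by 0.43 ± 0.16 at 24 h against 0 h (adjusted p = 0.21), and by 0.23 without that array, with 10.13, 9.77 and 9.98 at 24 h, against 9.77, 9.14 and 9.69 at 0 h. CREB3L2, an ATF6-related factor of the ER membrane, differed by -0.13 ± 0.15 at 8 h and -0.04 ± 0.15 at 24 h against 0 h, and by -0.29 and -0.21 without it.

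All 11 genes of ER-associated degradation were measured and 0 passed in any comparison, where 0.2% to 1.62% of all clusters were called. Of the 11, 2 reached an unadjusted p below 0.05 at 8 h against 0 h, where 15.1% of all clusters did so. At 24 h, 2 reached it against 8 h and 5 against 0 h, where 10.4% and 20.4% of all clusters did so. The median difference of the 11 genes at 8 h was 0.15, and 0.06 without untreated replicate 2. That of the lumenal chaperones, with all arrays, was -0.17. HERPUD1 and DERL3 were the 2 with a difference below 0. HERPUD1, a membrane protein that organises the retrotranslocation complex, had log2 signals of 12.23, 12.12 and 12.01 at 0 h, 11.91, 11.81 and 12.06 at 8 h, and 12.22, 12.24 and 12.16 at 24 h. Its arrays at 0 h and 8 h overlapped, and those at 24 h lay above those at 8 h. The differences were -0.19 ± 0.08 at 8 h against 0 h (adjusted p = 0.34) and 0.28 ± 0.08 at 24 h against 8 h (adjusted p = 0.29). DERL3, a derlin typical of secretory cells, differed by -0.27 ± 0.09 at 8 h against 0 h (adjusted p = 0.19), with 8.22, 8.20 and 8.37 at 8 h, against 8.45, 8.66 and 8.50 at 0 h.

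SYVN1 (HRD1), the ubiquitin ligase at the centre of the complex, ran the other way. Its log2 signal was 10.71, 10.83 and 10.81 at 0 h, 10.96, 10.84 and 11.00 at 8 h, and 10.83, 10.74 and 10.83 at 24 h. It was the 1 gene of the 36 whose 8 h arrays lay above all 6 others, the lowest of them by a narrow margin. The differences were 0.15 ± 0.07 at 8 h against 0 h (adjusted p = 0.34) and -0.14 ± 0.07 at 24 h against 8 h (adjusted p = 0.55). Its partner SEL1L differed by 0.21 ± 0.09 at 8 h and 0.25 ± 0.09 at 24 h against 0 h, and by 0.13 and 0.17 without untreated replicate 2.

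The EDEM proteins are mannosidase-related factors that mark glycoproteins for degradation. EDEM3 differed by 0.60 ± 0.23 at 24 h against 0 h, which did not pass (adjusted p = 0.21). This was the largest of the 36 differences there with all arrays, but without untreated replicate 2 it was 0.34, below the 0.42 of DNAJB9. Its log2 signal was 9.19, 8.35 and 9.08 at 0 h, 9.20 on each 8 h array, and 9.82, 9.20 and 9.40 at 24 h. Untreated replicate 2 was its lowest array by a wide margin, and without it the difference at 8 h was 0.06 instead of 0.33 ± 0.23. EDEM2 was tighter, with 9.33, 9.29 and 9.32 at 0 h, 9.45, 9.35 and 9.45 at 8 h, and 9.64, 9.49 and 9.62 at 24 h. The 3 groups of EDEM2 did not overlap and the difference at 24 h against 0 h was 0.27 ± 0.06 (adjusted p = 0.083). EDEM1 differed by 0.15 ± 0.17 at 8 h against 0 h and by -0.06 without untreated replicate 2.

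The lectin OS9 differed by 0.15 ± 0.11 at 8 h and 0.27 ± 0.11 at 24 h against 0 h, and its 24 h arrays (10.94, 10.88 and 10.91) lay above its untreated arrays (10.68, 10.64 and 10.59). The derlins DERL1 and DERL2 differed by 0.22 ± 0.14 and 0.0015 ± 0.15 at 8 h against 0 h, and SELENOS, a selenoprotein of the same complex, by 0.16 ± 0.10. Leaving out untreated replicate 2 gave 0.08, -0.13 and 0.06. SELENOS at 24 h against 0 h differed by 0.30 ± 0.10 (adjusted p = 0.18), and by 0.21 without that array.

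Of the translocation and export genes, 3 of 4 were measured and 0 passed in any comparison, with 0 at an unadjusted p below 0.05. Depending on the comparison, 0.2% to 1.62% of all clusters were called, and 10.4% to 20.4% reached an unadjusted p below 0.05. So few genes say little of the group. SEC61A1, the pore of the translocon, differed by 0.11 ± 0.10 at 8 h against 0 h, SSR1, a subunit of the translocon-associated complex, by 0.20 ± 0.20, and SEC24D, a COPII coat subunit, by 0.05 ± 0.20. Leaving out untreated replicate 2 gave -0.0038, -0.04 and -0.21, so that all 3 turned below 0. For SEC24D that array gave 9.59, against 10.38 and 10.35 on the other untreated arrays.

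**Figure D3:**
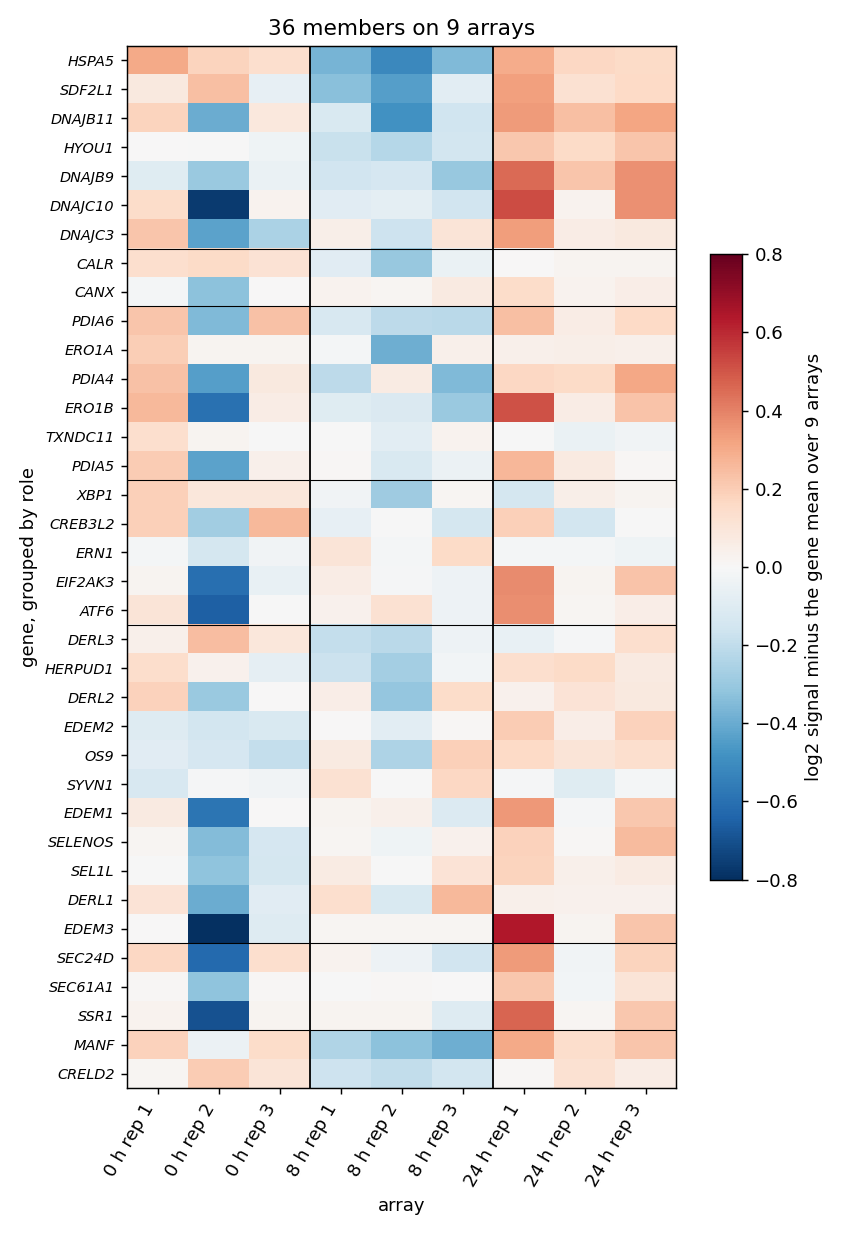
Log2 signal of the 36 genes on the 9 arrays, each minus the mean of the gene over the 9 arrays, with arrays in the order 0 h, 8 h and 24 h, replicates 1 to 3 within each, and genes grouped by role; red is above the mean of the gene and blue below it. Untreated replicate 2 is blue for most genes, and HSPA5, HYOU1, MANF, SDF2L1, CRELD2 and CALR are blue on the 8 h arrays without being so on untreated replicate 2 to the same degree.

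**Figure D4:**
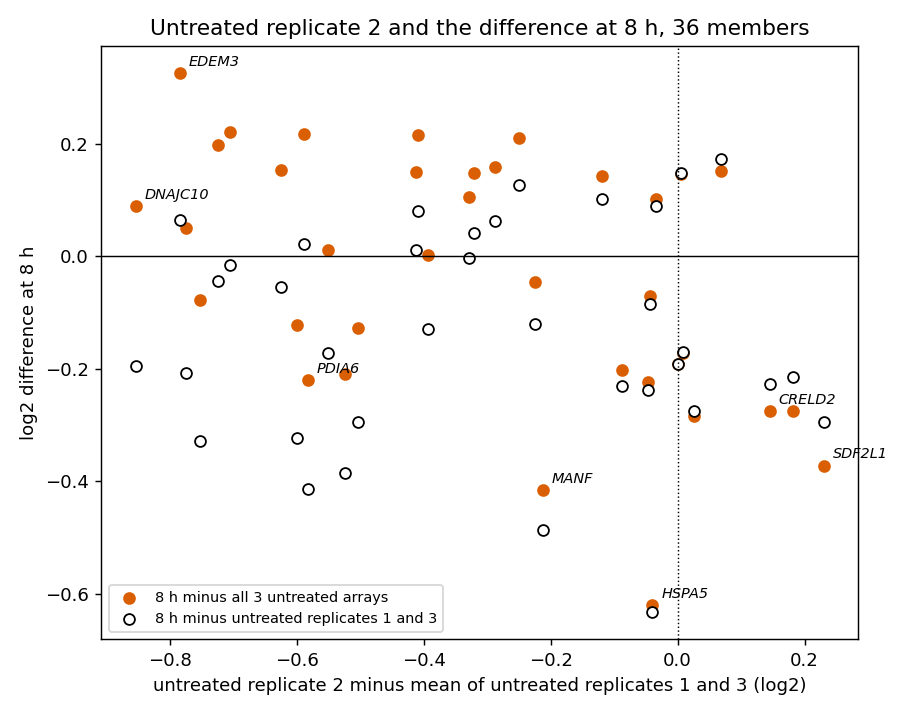
For each of the 36 genes, the log2 deviation of untreated replicate 2 from the mean of untreated replicates 1 and 3 (x axis) and the log2 difference at 8 h against 0 h (y axis), with all 3 untreated arrays (orange) or with replicates 1 and 3 only (open). HSPA5 stays near -0.6 in both versions, while genes at the left, such as DNAJC10 and EDEM3, move down when the array is left out.

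A contrast of 8 h against the mean of 0 h and 24 h measured a dip or a peak at 8 h as 1 value. The members were chosen with earlier results of these same arrays known. The contrast and the shares beside all clusters therefore describe the pattern and are no independent test of it. HSPA5 was lower by 0.62 ± 0.07 in this contrast (adjusted p = 0.019), the 1 gene of the 36 that passed. Of all clusters 0.1% passed as lower and 0.1% as higher. The next were MANF at -0.48 ± 0.07 (adjusted p = 0.055), HYOU1 at -0.28 ± 0.05 (adjusted p = 0.064), CRELD2 at -0.25 ± 0.06 (adjusted p = 0.14) and SDF2L1 at -0.43 ± 0.10 (adjusted p = 0.15). HSPA5, HYOU1, MANF and PDIA6 passed as lower without untreated replicate 2, 4 genes where 0.763% of all clusters passed as lower and 0.277% as higher. Leaving out untreated replicate 3 ended the HSPA5 call (-0.64, adjusted p = 0.063). It was also lost without 8 h replicate 1 (-0.64, adjusted p = 0.13), 8 h replicate 3 (-0.65, adjusted p = 0.092), 24 h replicate 2 (-0.63, adjusted p = 0.075) and 24 h replicate 3 (-0.63, adjusted p = 0.082).

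The 8 h arrays lay below all 6 others for HSPA5, HYOU1, SDF2L1, CALR, CRELD2 and MANF, 6 of the 36 genes, where 3.51% of all clusters did so. They lay above all others for SYVN1, 1 of the 36, where 1.62% of all clusters did so. When untreated replicate 2 was left out the first count was 12 of the 36, where 7.47% of all clusters did so, and the second was still 1, where 1.91% did. The contrast was below 0 for 25 of the 36 genes, where 56.9% of all clusters were, and for 30 without untreated replicate 2, where 57.2% of all clusters were. By role, all 7 lumenal chaperones, all 6 disulfide enzymes and both secreted factors were below 0, with medians of -0.29, -0.22 and -0.37. When arrays were quantile normalised or centred on their medians, 6 of the 7 lumenal chaperones were below 0. In ER-associated degradation 5 of 11 were below 0, with a median of 0.01, but 7 of 11 without untreated replicate 2, with a median of -0.04. The roles were not tested against each other.

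At 8 h against 0 h alone, the arrays did not overlap and all 8 h arrays were lower for 8 of the 36 genes, where 8.55% of all clusters met this, and higher for CANX, SYVN1, EDEM2 and EDEM3, 4 of the 36, where 9.06% did. Leaving out untreated replicate 2 gave 17 lower, where 17.5% of all clusters were, and 4 higher, where 11.2% were. The 24 h arrays lay above all 8 h arrays for 15 of the 36, where 15.2% of all clusters did so, and below them for SYVN1, 1 of the 36, where 6.40% did. They lay above all untreated arrays for 8 of the 36, where 15.6% did, and below them for CALR and XBP1, 2 of the 36, where 8.75% did. Without untreated replicate 2 these counts were 9, where 17.9% did so, and 3, where 13.2% did. Of the 5503 brightest clusters, the 24 h arrays lay above all untreated arrays for 1225 and below them for 580. Among the same bright clusters they lay above all 8 h arrays for 1230 and below them for 536. Whether the 36 genes differ at 24 h from clusters of similar signal was not tested. These comparisons share arrays.

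Genes of the wider ER pathway were counted in the same fit. Across 7 further lists, covering other folding factors, N-glycosylation, degradation, the translocon, ER export, response regulators and the ATF4 branch, 125 of 154 genes were measured. At 8 h against 0 h limma called 0 of the 125, with a median difference of 0.06, where 0.595% of all clusters were called. An unadjusted p below 0.05 was reached by 16, or 12.8%, against 15.1% of all clusters. Of the 125, 1 fell at 24 h against 8 h, with a median of 0.07, where 0.227% of all clusters fell, and 2 fell at 24 h against 0 h, with a median of 0.14, where 0.791% fell. In the direct contrast of 8 h, 0 of the 125 passed, with a median of -0.03, where 0.2% of all clusters passed. An unadjusted p below 0.05 was reached there by 14, or 11.2%, against 11.0% of all clusters. The 3 calls were all in the ATF4 branch, the amino acid arm downstream of EIF2AK3 and related kinases. PHGDH, the first enzyme of serine synthesis, fell by 0.50 ± 0.07 at 24 h against 8 h (adjusted p = 0.043). WARS1, a tryptophan tRNA synthetase, fell by 0.35 ± 0.06 (adjusted p = 0.035) and SLC7A5, an amino acid transporter, by 0.39 ± 0.07 (adjusted p = 0.045) at 24 h against 0 h. Whether these 3 calls hold when single arrays are left out was not looked at.

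In the ATF4 branch all 20 genes were measured and 0 passed at 8 h against 0 h, with 6 at an unadjusted p below 0.05, which 15.1% of all clusters reached. SLC7A11, the cystine transporter, which is also a target of NRF2, had log2 signals of 8.70, 7.83 and 8.68 at 0 h, 9.58, 9.39 and 9.45 at 8 h, and 8.98, 8.62 and 8.90 at 24 h. Its 8 h arrays lay above all others, and the difference of 1.07 ± 0.23 did not pass (adjusted p = 0.08). Its partner subunit SLC3A2 differed by 0.37 ± 0.08 (adjusted p = 0.084).

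Cytosolic heat shock genes encode folding machinery outside the ER, and 4 of them were higher at 8 h where HSPA5 was lower. Of 21 listed genes 16 were measured, and 4 rose at 8 h against 0 h, with a median difference of 0.36, where 0.268% of all clusters rose. HSPH1, an exchange factor for cytosolic HSP70, had log2 signals of 11.23, 10.98 and 10.98 at 0 h, 12.04, 11.95 and 12.13 at 8 h, and 11.39, 11.19 and 11.28 at 24 h, with 8 h above all others. HSPH1 rose by 0.98 ± 0.09 (adjusted p = 0.0066), the cochaperone DNAJB1 by 0.76 ± 0.09 (adjusted p = 0.017), HSP90AA1, the inducible cytosolic HSP90, by 0.65 ± 0.09 (adjusted p = 0.026) and BAG3 by 0.48 ± 0.06 (adjusted p = 0.021). HSPH1, HSP90AA1 and BAG3 fell by 0.75, 0.65 and 0.43 at 24 h against 8 h, 3 of the 16 where 0.227% of all clusters fell. In the contrast of 8 h against the mean of 0 h and 24 h these 4 genes passed as higher, by 0.45 to 0.87, where 0.1% of all clusters did, while HSPA5 passed as lower. Whether the calls of the 4 heat shock genes hold when single arrays are left out was not looked at.

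The promoter elements were found in 11 of the 37 listed genes with a promoter in the table, where 0.161% of 27305 genes held either. The 44 genes behind that share include these 11. The elements were searched because they are bound under ER stress, so a higher share in genes of that response is no independent result. The ER stress element was found in CALR, CANX, CRELD2, ERO1B, HSP90B1, HSPA5, PDIA6 and XBP1, 8 genes, where 0.0916% of genes held it. The second element was found in HERPUD1, HYOU1 and SDF2L1, where 0.0696% of genes held it. TGACGTGG, the core of the XBP1 and ATF6 site, was found in DNAJC10, HYOU1, TXNDC11 and TXNDC5, where 0.927% of genes held it. In HYOU1 it overlapped the upstream second element. A match is a match of letters and says nothing of binding in these cells.

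Of the 33 measured genes with a promoter, 10 held either ER stress element. Their differences at 8 h against 0 h ranged from -0.62 for HSPA5 to 0.15 for CANX with a median of -0.22, and 9 were below 0. The 23 genes without either element ranged from -0.41 for MANF to 0.33 for EDEM3 with a median of 0.11, and 7 were below 0. When untreated replicate 2 was left out the medians were -0.26 with an element and -0.04 without one, and 9 of 10 and 14 of 23 were below 0. The deviation of that array had a median of -0.02 in the 10 genes and -0.39 in the 23, and its part in the difference between them was not tested beyond leaving it out. The medians at 24 h against 8 h were 0.31 with an element and 0.16 without one. The 8 h arrays lay below all 6 others for 5 of the 10 genes and, among the 23, for MANF, whose promoter held none of the elements in the searched window. No test was run between the 2 sets.

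**Figure D5:**
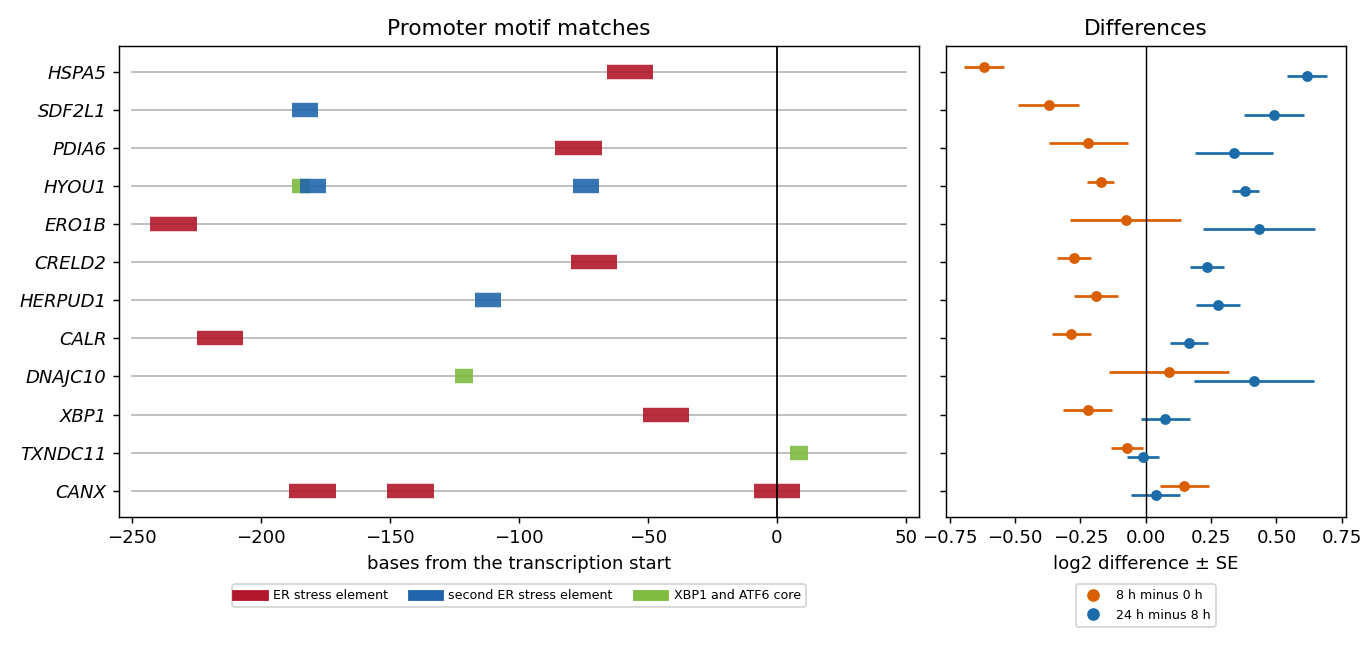
Left, positions of the ER stress element (red), the second ER stress element (blue) and the TGACGTGG core (green) in the promoters of the measured genes that hold one, in bases from the transcription start; right, log2 difference ± SE of each gene for 8 h minus 0 h (orange) and 24 h minus 8 h (blue). Genes run from the lowest contrast of 8 h against the mean of 0 h and 24 h, HSPA5 at -0.62, at the top to the highest, CANX at 0.05, at the bottom.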

How the data were processed

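Per the labels, RNA of 9 cultures was hybridised to Affymetrix Human Exon 1.0 ST arrays, 1 array per culture. Per the labels and the submitters' processing notes, the authors made gene-level RMA summaries of the core clusters with sketch-quantile normalization in Affymetrix Expression Console. In the sources used here, tool versions and the genome build are not given. The deposited values are log2 signals of 22011 transcript clusters, used unchanged. Arrays give no counts, and their number limits the precision.

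Gene symbols came from GEO's platform annotation, and 14432 clusters had 1 symbol, 2408 several and 5171 none. Symbols were updated by Entrez ID through RefSeq, which 14404 of the 14432 matched. One mean per group was fitted over all 9 arrays with limma 3.58.1 in R 4.3.3 (lmFit, eBayes, two-sided). P-values were adjusted by Benjamini-Hochberg over all 22011 clusters within a comparison and called below 0.05. The workflow was tested on simulated data. All members with their own cluster are named; from other lists, up to 4 called genes per comparison, or the 2 with the smallest p for the ATF4 branch. The members and lists were chosen with earlier results of these data known. Alternatives were a replicate block, filters on dim clusters, other scalings, array weights, other variance models, averaged clusters, fits of the groups compared, a threshold of 0.01 and leaving out each array. Gene-by-gene array weights and omitting clusters equal on all 3 arrays of any group were added after seeing the data. Protein sequences were not used here.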

Additional observations from a re-analysis of the deposited data

Results flagged for a closer look

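The differences from 0 h at 24 h and at 8 h differed from each other for 3 ER genes by the test of 24 h against 8 h, which is the test of the difference itself. For HSPA5 the difference was 0.62, with -0.0011 at 24 h and -0.62 at 8 h, each against 0 h. For HYOU1 it was 0.38, with 0.21 at 24 h and -0.17 at 8 h. For MANF it was 0.54, with 0.13 at 24 h and -0.41 at 8 h, and 0.06 and -0.49 without untreated replicate 2. Both differences of a gene use the same untreated arrays. The calls depended on single arrays, as given with each gene above.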

How the results depend on the processing

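Limits: 3 arrays per group, 1 untreated array that stood apart, and no time-matched controls bound what the tests could show. Across the alternatives, 97 differences of the ER genes were recomputed 2018 times. Of these, 56 changed sign, in 24 differences, none of them called and none over 0.22 in size. The 97 cover every measured ER gene at 8 h against 0 h and at 24 h against 8 h. For 24 h against 0 h and the direct contrast of 8 h they cover only some genes. Those are the genes called in any comparison under a setting other than the first array weights, and the largest rise and fall. The called differences of the ER genes kept their sign in every alternative run. Calls of BLK, the ATF4 branch and the heat shock genes were not followed through the alternatives. HSPA5 at 8 h against 0 h passed in 15 of 21 alternatives (-0.66 to -0.52), HSPA5 at 24 h against 8 h in 12 of 21 (0.56 to 0.65), HYOU1 and MANF at 24 h against 8 h in 8 of 21 each (0.33 to 0.40 and 0.47 to 0.58), DNAJB9 at 24 h against 0 h in 8 of 20 (0.40 to 0.56), and HSPA5 at 8 h against the mean of 0 h and 24 h in 13 of 20 (-0.65 to -0.54). The filter on the dimmest 50% left out DNAJB9, and a fit of only the groups compared does not apply to the contrast that uses all groups.

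At 8 h against 0 h, 1 ER gene and 131 clusters were called. Leaving out the dimmest 25% of clusters gave 2 genes and 302 clusters, the dimmest 50% gave 2 and 312, quantile normalization 2 and 390, and centring on array medians 2 and 288, the 2 being HSPA5 and MANF. Array weights gave 21 genes and 9603 clusters, in a fit of the weights that stopped before it converged, and weights fitted gene by gene gave 4 and 1703. A fit of only the groups compared gave 0 and 9, and a threshold of 0.01 gave 0 and 19. Whether the replicate numbers pair the cultures was not settled. Correlations of deviations between arrays of the same number ran from -0.14 to 0.39, with the highest, 0.39 and 0.38, between 24 h and 0 h in replicates 1 and 2. With a replicate block 85 clusters were called and HSPA5 stayed the 1 ER gene. Leaving out each array gave 0 to 3 genes and 9 to 654 clusters. The 0 came without untreated replicate 3, 8 h replicate 1, 8 h replicate 3 or 24 h replicate 2, the 2 without untreated replicate 1 and the 3 without untreated replicate 2.

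The comparison of 24 h with 8 h called 3 genes and 72 clusters. The replicate block gave 1 gene and 44 clusters, leaving out the dimmest 50% gave 115 clusters, quantile normalization 2 genes and 109 clusters, array weights 9 genes and 1516 clusters, gene-by-gene weights 9 and 1325, only the groups compared 0 and 25, and a threshold of 0.01 0 and 19. Leaving out each array gave 0 to 4 genes and 4 to 160 clusters; 0 genes passed without untreated replicate 3 or any 1 treated array. HYOU1 lost its call under quantile normalization, centring on medians and the replicate block. MANF lost its call under the block, trended and robust eBayes and the omission of clusters equal on all arrays of a group, and had an adjusted p of 0.05 after rounding, still called, with the clusters of a symbol averaged. The comparison of 24 h with 0 h called 1 gene and 357 clusters. The replicate block gave 0 genes and 378 clusters, and leaving out the dimmest 50% gave 0 genes. Quantile normalization gave 560 clusters, array weights 14 genes and 9010 clusters, and gene-by-gene weights 4 and 1889. A fit of only the groups compared gave 0 and 20, and a threshold of 0.01 gave 0 and 24. Leaving out each array gave 0 genes each time and 21 to 768 clusters. For 8 h against the mean of 0 h and 24 h, 1 gene and 44 clusters were called. The replicate block gave 0 and 11, leaving out the dimmest 25% gave 2 and 119, the dimmest 50% 3 and 133, quantile normalization 2 and 130, centring on medians 2 and 106, array weights 14 and 4425, gene-by-gene weights 9 and 1372, and a threshold of 0.01 0 and 7. Leaving out each array gave 0 to 4 genes and 3 to 229 clusters. The cause of these changes was not tested, except that a stricter threshold calls no more by construction.

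Signs changed for small differences. At 8 h against 0 h, quantile normalization gave -0.0497 for DERL2, -0.0016 for PDIA5 and -0.0050 for SEC24D, and centring on medians gave -0.0212 for DERL2 and -0.0115 for PDIA5. Array weights gave -0.13 for DNAJC10, -0.0135 for EDEM1, -0.0568 for PDIA5, -0.16 for SEC24D, -0.0051 for SEC61A1 and -0.0289 for SSR1. Gene-by-gene weights gave -0.13 for DNAJC10, -0.0171 for EDEM1, -0.0831 for PDIA5, -0.16 for SEC24D and -0.0113 for SSR1. Averaging the 2 clusters of TXNDC11 gave 0.0005. For 24 h against 8 h, centring on medians gave -0.0022 for CANX and -0.0026 for SEL1L, and quantile normalization -0.014 for SEL1L. For 24 h against 0 h, array weights gave 0.0402 for HSPA5 and -0.0839 for PDIA6, and gene-by-gene weights -0.05 for PDIA6. In the direct contrast of 8 h, array weights gave -0.0149 and gene-by-gene weights -0.0301 for SELENOS.

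Leaving out each array gave, at 8 h against 0 h, -0.0148 to 0.36 for ATF6, -0.13 to 0.14 for DERL2, -0.12 to 0.0073 for DNAJB9, -0.20 to 0.26 for DNAJC10, -0.055 to 0.27 for EDEM1, -0.33 to 0.10 for ERO1B, -0.32 to 0.0171 for PDIA4, -0.17 to 0.14 for PDIA5, -0.21 to 0.19 for SEC24D, -0.0038 to 0.16 for SEC61A1 and -0.0442 to 0.32 for SSR1. The lowest of each came without untreated replicate 2. For 24 h against 8 h it gave -0.0005 to 0.18 for ATF6, -0.0046 to 0.16 for CREB3L2, -0.16 to 0.0286 for DERL1, -0.0271 to 0.20 for DERL2, -0.0037 to 0.0652 for SEL1L, -0.0425 to 0.0153 for TXNDC11 and -0.0179 to 0.13 for XBP1. For 24 h against 0 h it gave -0.0873 to 0.0071 for CRELD2, -0.0481 to 0.0485 for HSPA5 and -0.0764 to 0.22 for PDIA6. In the direct contrast it gave -0.0409 to 0.0495 for SELENOS. Signs also changed outside the tally. Without untreated replicate 2, PDIA5 gave -0.0063 instead of 0.18 at 24 h against 0 h, DERL2 -0.0201 instead of 0.11 and ERN1 -0.0004 instead of 0.0393. In the direct contrast ATF6 gave -0.0634 instead of 0.0542, EDEM3 -0.1074 instead of 0.0232, EIF2AK3 -0.093 instead of 0.005 and SEC61A1 -0.0503 instead of 0.0043.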

Other observations

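Some deposited signals were equal on all 3 arrays of a group, in 165 clusters at 0 h, 438 at 8 h and 364 at 24 h. EDEM3 at 8 h was the 1 such case among the 36 ER genes, so its SD there is 0 and its spread came from the other groups. In 6 of the 36 genes at least 2 arrays of a group had equal values.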
